A study of Mus musculus with 7 samples.

Results

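The T cell receptor complex and its coreceptors were followed through 10 genes, found by their symbols in a table of 21878 genes. They were the CD3 chain genes Cd3d, Cd3e and Cd3g, the zeta chain gene Cd247, the coreceptor genes Cd8a, Cd8b1 and Cd4, the kinase genes Lck and Zap70, and the costimulatory receptor gene Cd28. All 10 were present. Messenger RNA was sequenced from 7 tumours of B16F10, a pigmented mouse melanoma line grafted into female C57BL/6J mice. The Zelnorm group held 4 tumours from mice dosed by mouth with 1.25 mg/kg every 2 days, and the control group (NC) held 3. Zelnorm is the trade name of tegaserod, which activates serotonin receptors of the 5-HT4 type. The libraries are called by their columns, MBZ_9, MBZ_11, MBZ_13 and MBZ_15 for Zelnorm and NC_5, NC_6 and NC_10 for NC, and the labels do not say what MBZ stands for. All 7 tumours share the graft line, the strain and the sex, so each library mixes RNA of melanoma cells and of whatever host cells had entered the graft. Whether any mouse gave more than a single library is not in the labels, so p-values may cover only a technical spread between these samples.

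The receptor of a conventional T cell pairs an alpha and a beta chain, which bind peptide held by MHC molecules, with CD3 and zeta chains, which carry the signal inward. CD8 binds MHC class I and CD4 binds MHC class II, and both bring the kinase LCK to the complex, where it phosphorylates the tails of the CD3 and zeta chains and so recruits ZAP-70. CD28 adds a second signal when it meets CD80 or CD86. Some of these genes are shared with other leukocytes: natural killer cells carry the zeta chain, LCK and ZAP-70, some dendritic cells carry CD8 alpha without CD8 beta, and some myeloid cells carry CD4. The constant regions of the receptor chains themselves were not analysed here.

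In the Zelnorm tumours the 9 of 10 genes that could be tested all had a higher fitted level, and Cd8a differed most, with a log2 fold change of 1.65 ± 0.44 (SE). Cd8b1, Cd3d and Cd3g followed at 1.24, 1.26 and 1.10, whereas Lck stood at 0.30 and Cd247 at 0.20. None passed edgeR's test, in which 0.0308% of all genes were called as higher, and 50.2% of all genes tested had a fitted change above 0. The counts were low, and MBZ_9 and MBZ_11 held the highest pair of values for 9 of the 10 genes, with Cd247 as the exception. NC_10 held the lowest value for 7 of them.

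The CD3 genes lie together on chromosome 9 of GRCm38. Cd3g (44969572 to 44980431, minus strand) and Cd3d (44981769 to 44987052, plus strand) face away from each other, with 1338 bases between their outer starts, and Cd3e (44998735 to 45009663, minus strand) lies 11683 bases beyond the end of Cd3d. Cd8b1 (71322788 to 71337492) and Cd8a (71373427 to 71379171) are neighbours on the plus strand of chromosome 6. The 250 bases before an annotated start are shown for the 3 CD3 genes and Cd8a, which were highest in the same libraries, and for both annotated starts of Lck, which varied least. Sequences are those of RefSeq on GRCm38.p6, read 5′ to 3′ on the gene's strand, and 7 of the 10 genes had an entry. Capitals mark matches on either strand to 4 motifs: the E-box forms CAGGTG and CAGCTG, the ETS-type AGGAAG, the RUNX-type TGTGGT and the TATA-box TATAAA.
Cd3g, chr9:44980432-44980681, minus strand: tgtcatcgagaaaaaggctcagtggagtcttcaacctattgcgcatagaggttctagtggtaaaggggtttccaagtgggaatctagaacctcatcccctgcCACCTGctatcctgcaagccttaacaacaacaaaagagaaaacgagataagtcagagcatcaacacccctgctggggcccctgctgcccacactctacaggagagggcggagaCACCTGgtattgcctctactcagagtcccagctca
Cd3d, chr9:44981536-44981785, plus strand: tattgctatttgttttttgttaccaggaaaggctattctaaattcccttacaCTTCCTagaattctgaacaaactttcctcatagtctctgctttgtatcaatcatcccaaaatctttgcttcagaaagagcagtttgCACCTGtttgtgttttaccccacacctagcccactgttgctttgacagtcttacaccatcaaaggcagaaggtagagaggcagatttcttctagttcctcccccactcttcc
Cd3e, chr9:45009612-45009861, minus strand: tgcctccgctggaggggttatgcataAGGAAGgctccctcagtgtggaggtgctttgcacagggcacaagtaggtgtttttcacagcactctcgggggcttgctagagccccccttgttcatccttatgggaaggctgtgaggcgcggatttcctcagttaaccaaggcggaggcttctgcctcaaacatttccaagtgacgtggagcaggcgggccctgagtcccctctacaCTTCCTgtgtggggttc
Cd8a, chr6:71373177-71373426, plus strand: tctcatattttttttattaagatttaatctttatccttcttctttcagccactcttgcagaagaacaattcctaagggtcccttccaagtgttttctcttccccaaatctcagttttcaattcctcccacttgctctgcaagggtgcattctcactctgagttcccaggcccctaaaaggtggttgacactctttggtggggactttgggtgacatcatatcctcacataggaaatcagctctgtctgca
Lck, outer start, chr4:129573642-129573891, minus strand: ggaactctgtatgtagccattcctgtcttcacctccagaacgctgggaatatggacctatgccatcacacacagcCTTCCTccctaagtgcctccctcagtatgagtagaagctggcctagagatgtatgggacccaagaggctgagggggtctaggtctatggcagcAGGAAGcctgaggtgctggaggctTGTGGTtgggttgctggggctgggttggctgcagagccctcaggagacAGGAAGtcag
Lck, inner start, chr4:129558373-129558622, minus strand: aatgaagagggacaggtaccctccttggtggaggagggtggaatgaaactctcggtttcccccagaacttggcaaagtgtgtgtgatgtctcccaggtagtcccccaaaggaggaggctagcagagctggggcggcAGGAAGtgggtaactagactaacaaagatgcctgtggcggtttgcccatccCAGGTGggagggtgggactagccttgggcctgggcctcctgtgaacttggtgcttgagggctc

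The Cd3g window held 2 E-box matches and the Cd3d and inner Lck windows 1 each, a motif found in 27.7% of the 32851 windows of all genes. The Cd3e window held 2 ETS-type matches, the Cd3d and inner Lck windows 1 each, and the outer Lck window held 3, against 29.5% of all windows with at least 1. The RUNX-type motif, in 14.0% of windows, had 1 match, before the outer start of Lck. None of the 6 windows held the TATA form, which 12.4% of all windows did, and the Cd8a window held none of the 4 motifs. No single motif was shared by the 3 CD3 windows. These matches describe letters and say nothing of binding.

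Library totals ran from 16903598 to 19666598 counts in Zelnorm and from 18079258 to 19547390 in NC, so a floor of 3 counts stood at 0.152 to 0.178 CPM. CPM are counts per megaread of the library, with its total corrected by a TMM factor. No library was a copy of another: between any 2 of them the chi-square of counts over its degrees of freedom was 6.53 or more. Melanocyte lineage markers summed to between 28121 and 30352 CPM in Zelnorm and between 25975 and 29381 CPM in NC. Of these 8 markers, all tested, 5 were higher and 3 lower (median 0.03), 1 higher at an unadjusted p under 0.05 (2 without NC_6), and edgeR, DESeq2 and limma voom called 0. Of 12997 genes tested with edgeR's quasi-likelihood test, 4 passed an adjusted p of 0.05 and were higher and 0 were lower. At an unadjusted p under 0.05 there were 902 higher and 439 lower genes. The count of called genes was 0 without NC_5, 161 without NC_10 and 21 without MBZ_15, and DESeq2 called 206. Of the 12000 genes to which DESeq2 gave an adjusted p, 171 (1.42%) were called as higher.

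The CD3 delta, epsilon and gamma chains form the pairs that carry the receptor's signal. Cd3e had 55, 56, 25 and 19 counts in MBZ_9, MBZ_11, MBZ_13 and MBZ_15, against 29, 25 and 15 counts in NC_5, NC_6 and NC_10. Its mean was 2.21 ± 1.20 CPM in Zelnorm and 1.24 ± 0.427 CPM in NC (SD, n = 4 and 3). MBZ_9 and MBZ_11 lay above all other libraries, while MBZ_13 and MBZ_15 lay among the NC values, so the groups overlapped. The log2 fold change was 0.83 ± 0.47 (SE), with a 95% interval from -0.21 to 1.87 and an edgeR adjusted p of 0.591. An antisense gene model overlaps Cd3e, and reads of the pair may be mixed if strand was not used. Another gene model overlaps Cd3e on its own strand, and strand would not separate those reads.

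Cd3d had 37, 40, 9 and 11 counts in the 4 Zelnorm libraries in the same order, against 14, 10 and 8 counts in NC. The same 2 libraries were high, and the other 2 lay within the NC range in CPM. Its log2 fold change was 1.26 ± 0.60 (SE; 95% interval -0.08 to 2.60, edgeR adjusted p = 0.512). Cd3g had 34, 39, 26 and 16 counts in Zelnorm, against 26, 12 and 4 counts in NC, the last of these near the floor of 3. In CPM MBZ_13 also lay above every NC library here, but narrowly, at 1.46 against 1.41 CPM in NC_5, which had the same 26 counts. On that scale the groups overlapped through MBZ_15 alone. The log2 fold change of Cd3g was 1.10 ± 0.56 (SE; 95% interval -0.13 to 2.34, edgeR adjusted p = 0.539). It was 0.64 without NC_10 and 1.91 without NC_5.

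Summed over the 3 chains, the CD3 level was 7.25, 7.99, 3.38 and 2.34 CPM in MBZ_9, MBZ_11, MBZ_13 and MBZ_15, against 3.74, 2.62 and 1.37 CPM in NC_5, NC_6 and NC_10. The Zelnorm group thus held both the high pair and 2 libraries that lay below NC_5. In bulk tumour RNA, fewer cells of a type and less RNA per cell cannot be told apart.

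Cd247 encodes the zeta chain, which carries the most signalling motifs of the complex. It had 31, 15, 9 and 15 counts in Zelnorm, against 11, 20 and 17 counts in NC. MBZ_9 alone stood above the NC range, MBZ_11 and MBZ_15 lay inside it and MBZ_13 lay below it. Cd247 averaged 0.985 ± 0.556 CPM in Zelnorm and 0.856 ± 0.259 CPM in NC, a log2 fold change of 0.20 ± 0.46 (SE; 95% interval -0.82 to 1.21, edgeR adjusted p = 0.926). The fitted change was -0.25 without MBZ_9 and -0.00415 without NC_5. Cd247 (chromosome 1, 165779952 to 165871153, plus strand) overlaps Pou2f1 on the other strand and several RNA gene models, and since the strand setting of the counting is not given in the sources used here, its count is uncertain.

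**Figure D1:**
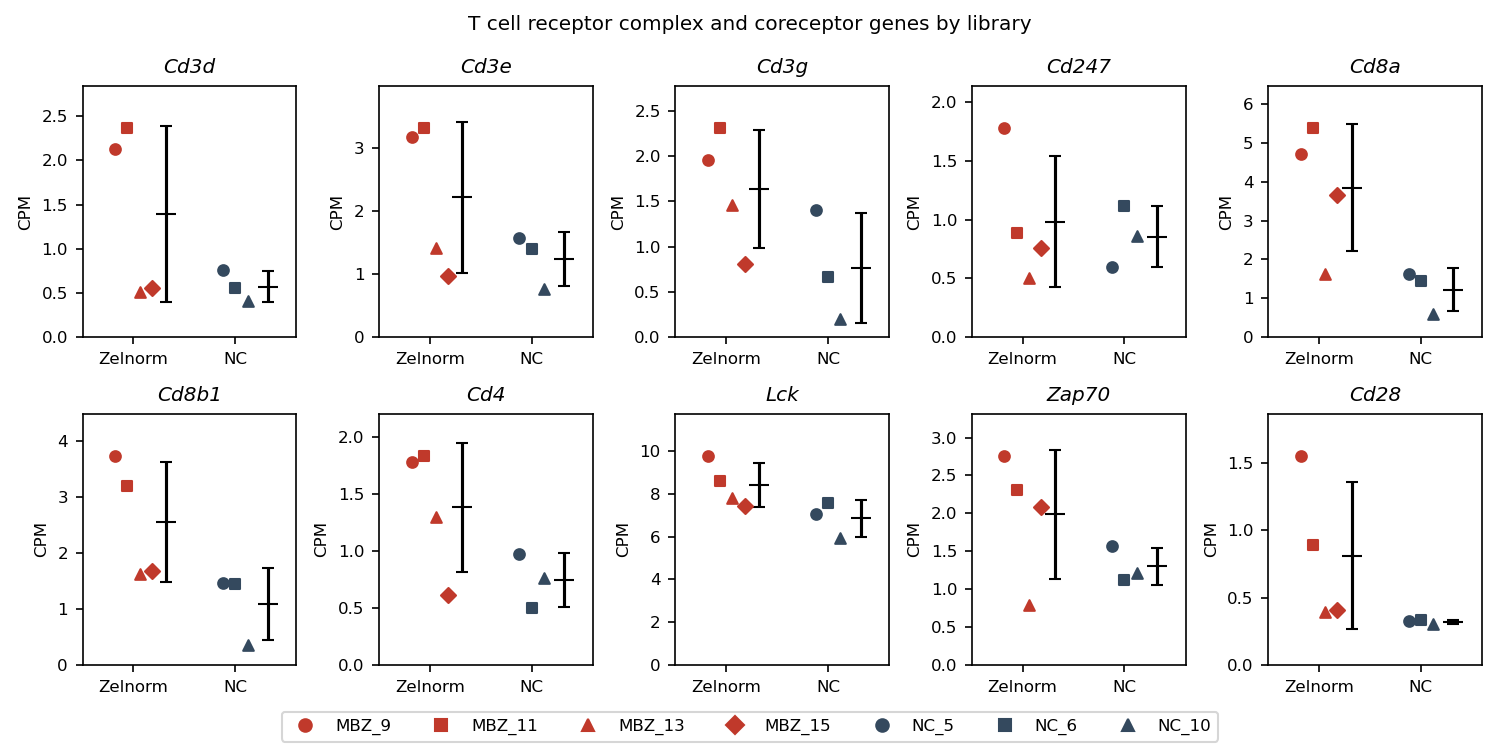
Level of each of the 10 genes (y axis, CPM, from 0) in the 4 Zelnorm libraries and the 3 NC libraries; points are libraries and bars give the mean and SD. MBZ_9 and MBZ_11 are the 2 highest points in 9 panels, and the lowest Lck value, 5.92 CPM in NC_10, is above every value of the other 9 genes.

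The coreceptor CD8 is a dimer, usually of an alpha and a beta chain on cytotoxic T cells. Cd8a had 82, 91, 29 and 72 counts in MBZ_9, MBZ_11, MBZ_13 and MBZ_15, against 30, 26 and 12 counts in NC_5, NC_6 and NC_10. Scaled to library size these were 4.72, 5.39, 1.63 and 3.66 CPM in Zelnorm, against 1.62, 1.45 and 0.607 CPM in NC. Each Zelnorm library lay above each NC library, but MBZ_13 exceeded NC_5 only in the third digit (1.632 against 1.625 CPM). A gap of this kind, with the Zelnorm libraries all on the upper side, was seen in 5.33% of all genes tested.

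Cd8a averaged 3.85 ± 1.64 CPM in Zelnorm and 1.23 ± 0.544 CPM in NC, a log2 fold change of 1.65 ± 0.44 (SE; 95% interval 0.66 to 2.64). The unadjusted edgeR p was 0.0038, and after Benjamini-Hochberg adjustment over all genes it was 0.222. DESeq2 gave the same size of change, 1.64, and called the gene with an adjusted p of 0.0164, in a test that called 1.42% of genes as higher. The Cd8a call thus depends on the tool. With the level of 14 pan-leukocyte genes as a covariate the fitted change was 0.99 (edgeR adjusted p = 0.916).

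Cd8b1, which encodes the beta chain the partner of CD8 alpha on cytotoxic T cells, had 65, 54, 29 and 33 counts in Zelnorm, against 27, 26 and 7 counts in NC. The groups did not overlap, although MBZ_13 and MBZ_15, at 1.63 and 1.68 CPM, stood close to NC_5 and NC_6, at 1.46 and 1.45 CPM. The mean was 2.56 ± 1.07 CPM in Zelnorm and 1.09 ± 0.636 CPM in NC. The log2 fold change was 1.24 ± 0.49 (SE; 95% interval 0.16 to 2.31), and it was 0.81 without NC_10. The unadjusted edgeR p was 0.0283, and after Benjamini-Hochberg adjustment over all genes it was 0.415.

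CD4 marks helper and regulatory T cells, and Cd4 transcripts are also seen in myeloid cells. Cd4 (chromosome 6, 124864693 to 124888247, minus strand) had 31, 31, 23 and 12 counts in Zelnorm, against 18, 9 and 15 counts in NC. MBZ_9, MBZ_11 and MBZ_13 lay above every NC library, and MBZ_15 lay between NC_6 and NC_10. The mean was 1.38 ± 0.569 CPM in Zelnorm and 0.745 ± 0.237 CPM in NC, a log2 fold change of 0.87 ± 0.44 (SE; 95% interval -0.09 to 1.84, edgeR adjusted p = 0.536).

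LCK is the kinase that CD4 and CD8 carry, and ZAP-70 binds the phosphorylated CD3 and zeta tails. Lck (chromosome 4, 129548344 to 129573641, minus strand) had 170, 145, 139 and 146 counts in Zelnorm, against 130, 136 and 117 counts in NC. It averaged 8.40 ± 1.04 CPM in Zelnorm and 6.84 ± 0.846 CPM in NC, and MBZ_15, at 7.42 CPM, lay just under NC_6, at 7.57 CPM. The log2 fold change was 0.30 ± 0.15 (SE; 95% interval -0.04 to 0.63, edgeR adjusted p = 0.539). Between its highest and lowest library Lck differed 1.65-fold, against 4.37-fold for Cd3e and 8.88-fold for Cd8a.

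Zap70 (chromosome 1, 36761798 to 36782821, plus strand) had 48, 39, 14 and 41 counts in Zelnorm, against 29, 20 and 24 counts in NC. MBZ_13 held the lowest value of all 7 libraries, and the other 3 Zelnorm libraries lay above every NC library. The mean was 1.99 ± 0.847 CPM in Zelnorm and 1.30 ± 0.240 CPM in NC, with a log2 fold change of 0.61 ± 0.40 (SE; 95% interval -0.27 to 1.49, edgeR adjusted p = 0.652). A pseudogene model on the other strand overlaps Zap70.

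Cd28 (chromosome 1, 60746388 to 60773359, plus strand) had 27, 15, 7 and 8 counts in Zelnorm, against 6 counts in each NC library. In CPM all 4 Zelnorm libraries lay above the NC libraries, 2 of them narrowly, at 0.394 and 0.406 CPM against 0.334 CPM in NC_6. With at least 10 counts in only 2 libraries, Cd28 did not pass the filter on low counts. Its mean of 0.810 ± 0.546 CPM in Zelnorm and 0.321 ± 0.0158 CPM in NC gave an exact permutation test, 2-sided, of p = 0.171. In a fit without that filter the log2 fold change was 1.31 (edgeR adjusted p = 0.533).

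Of the 10 genes, 9 passed the filter, which a gene low in NC can pass through the Zelnorm libraries. The median log2 fold change of these 9 was 0.87, against 0.00036 over all genes tested, and 9 of 9 were above 0, against 50.2% of all genes. At an unadjusted edgeR p under 0.05 there were 2, Cd8a and Cd8b1, where 6.94% of all genes were higher and 3.38% lower. That count was 1 without MBZ_9, without MBZ_11 or without NC_10, 4 without MBZ_13 and 6 without MBZ_15. At an adjusted p under 0.05 edgeR and limma voom called 0 of the 9. DESeq2 called 1 of the 6 for which it gave an adjusted p, where it called 1.42% of all genes as higher.

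**Figure D2:**
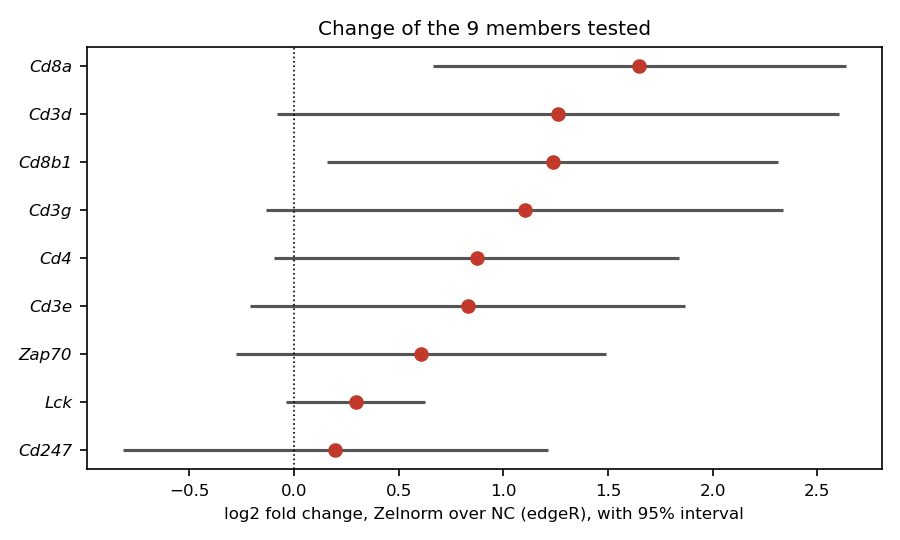
Fitted log2 fold change of Zelnorm over NC (x axis) for the 9 tested genes (y axis), with 95% intervals from edgeR as lines and a dotted line at 0. The intervals of Cd8a (0.66 to 2.64) and Cd8b1 (0.16 to 2.31) lie above 0, and the other 7 include it.

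Levels of different genes were compared per kilobase of exon, using the union of exons in GENCODE M21 for GRCm38. Lck was highest, at 3.34 ± 0.524 CPM per kilobase over the 7 libraries (SD), and its lowest library, at 2.55, lay above the highest library of any other of the genes, Cd8b1 at 2.52. Below it came Cd8b1, Cd3g and Cd3e at 1.30 ± 0.777, 1.23 ± 0.727 and 1.23 ± 0.702 CPM per kilobase, then Cd8a at 0.870 ± 0.590, Zap70 at 0.753 ± 0.319 and Cd3d at 0.643 ± 0.516. The SDs hold the spread between libraries, so they do not test neighbours in this order within a library. Cd3e, for one, lay above Cd8a in each library but MBZ_15, where it stood at 0.660 against 1.17 CPM per kilobase. Cd4, Cd247 and Cd28 were lowest, at 0.357 ± 0.175, 0.204 ± 0.0934 and 0.138 ± 0.107 CPM per kilobase. For genes with several isoforms, Cd247 above all, the exon union can exceed the transcript present and understate the level.

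Set against Cd3e per kilobase, Lck stood at 1.95, 1.63, 3.51 and 4.85 times its level in MBZ_9, MBZ_11, MBZ_13 and MBZ_15, against 2.83, 3.43 and 4.92 times in NC_5, NC_6 and NC_10. The smallest values were those of the 2 libraries with the most CD3 transcripts, and the largest were those of the 2 with the least. Cd3e enters both measures and Lck varied least, so this order follows largely from Cd3e itself.

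How Cd8a stands to Cd4 was asked within each library, where library size plays no part. Cd8a made up 72.6%, 74.6%, 55.8% and 85.7% of the counts of the pair in MBZ_9, MBZ_11, MBZ_13 and MBZ_15, against 62.5%, 74.3% and 44.4% in NC_5, NC_6 and NC_10. With exact 95% binomial intervals, which cover counting error only, the highest share, in MBZ_15, lay between 76.4% and 92.4% and the lowest, in NC_10, between 25.5% and 64.7%. The ratio of Cd8a to Cd4 per kilobase was 2.62, 2.91, 1.25 and 5.95 in Zelnorm, against 1.65, 2.87 and 0.794 in NC. The groups overlapped: MBZ_13 lay below NC_5 and NC_6, and NC_6 was level with MBZ_9 and MBZ_11.

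The mean log2 ratio of Cd8a to Cd4 was 1.45 ± 0.904 in Zelnorm and 0.63 ± 0.899 in NC (SD, n = 4 and 3), a difference of 0.82 with p = 0.314 (exact permutation test over 35 splits, 2-sided) and 0.823 after adjustment over 8 ratios. The smallest p that 3 against 4 libraries allow is 0.0286. MBZ_15 set the highest ratio through a low Cd4 count, 12, beside 72 counts of Cd8a. For Cd8b1 to Cd4 the difference was 0.56 (p = 0.514, exact permutation test), and without NC_10 it was -0.13.

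Cd8a set against Cd3e gave the ratio with the smallest p. The counts of Cd8a were 1.49, 1.63, 1.16 and 3.79 times those of Cd3e in MBZ_9, MBZ_11, MBZ_13 and MBZ_15, against 1.03, 1.04 and 0.80 times in NC_5, NC_6 and NC_10. Each Zelnorm library was above each NC library, and MBZ_15 stood highest. The mean log2 ratio was 0.84 ± 0.731 in Zelnorm and -0.07 ± 0.209 in NC, a difference of 0.91 with an exact permutation p of 0.0571, and 0.457 after adjustment over the 8 ratios. Without MBZ_15 the difference was 0.56.

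The ratio of Cd8a to Cd8b1 counts was 1.26, 1.69, 1.0 and 2.18 in Zelnorm, against 1.11, 1.0 and 1.71 in NC. MBZ_15 was again highest and NC_10 was above 3 of the 4 Zelnorm libraries, and the difference in mean log2 ratio was 0.25 (p = 0.514, exact permutation test). Of the markers of type 1 dendritic cells, which can carry CD8 alpha alone, Xcr1 had 25, 33, 4 and 14 counts in Zelnorm, against 7, 19 and 10 in NC. Clec9a had 19, 12, 3 and 8 counts in Zelnorm, against 5, 11 and 7 in NC. In CPM, MBZ_15 lay between NC_10 and NC_6 for both genes. The whole list of 8 summed to between 307.8 and 351.5 CPM in Zelnorm and between 239.2 and 312.0 CPM in NC, none at 0. Most of that sum was Cadm1 alone, at 251 to 263 CPM in Zelnorm and 198 to 262 CPM in NC. Of the 8 tested, 7 were higher and 1 lower (median 0.60), 3 of them at an unadjusted p under 0.05 (1 without MBZ_11 or NC_10), and edgeR, DESeq2 and limma voom called 0. The part of type 1 dendritic cells in the Cd8a values was not tested.

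Relative to Ptprc, the gene of the pan-leukocyte antigen CD45, Cd3e did not stand higher in Zelnorm. Ptprc itself had 19.6 ± 3.50 CPM in Zelnorm and 11.7 ± 3.21 CPM in NC, and each Zelnorm library was above each NC library. The log2 ratio of Cd3e to Ptprc averaged -3.29 ± 0.650 in Zelnorm and -3.24 ± 0.928 in NC, a difference of -0.05 (p = 0.914, exact permutation test). It was above 0 when MBZ_13, MBZ_15, NC_5 or NC_6 was left out. That of Cd8a to Ptprc averaged -2.45 ± 0.615 in Zelnorm and -3.31 ± 1.13 in NC, a difference of 0.86 (p = 0.286, exact permutation test). It was 0.21 without NC_10.

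Cd4 was also set against Csf1r, the receptor of macrophage growth factors. Csf1r had 769, 1107, 821 and 860 counts in Zelnorm, against 504, 387 and 1119 counts in NC, and NC_10, at 56.6 CPM, lay above 3 of the 4 Zelnorm libraries. The log2 ratio of Cd4 to Csf1r averaged -5.24 ± 0.624 in Zelnorm and -5.43 ± 0.706 in NC (difference 0.19, p = 0.686, exact permutation test), and the difference was -0.19 without NC_10 and -0.02 without MBZ_9. The ratio of Cd4 to Cd3e had a difference of 0.09 (p = 0.943, exact permutation test), which was -0.27 without NC_6 and -0.07 without MBZ_13.

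**Figure D3:**
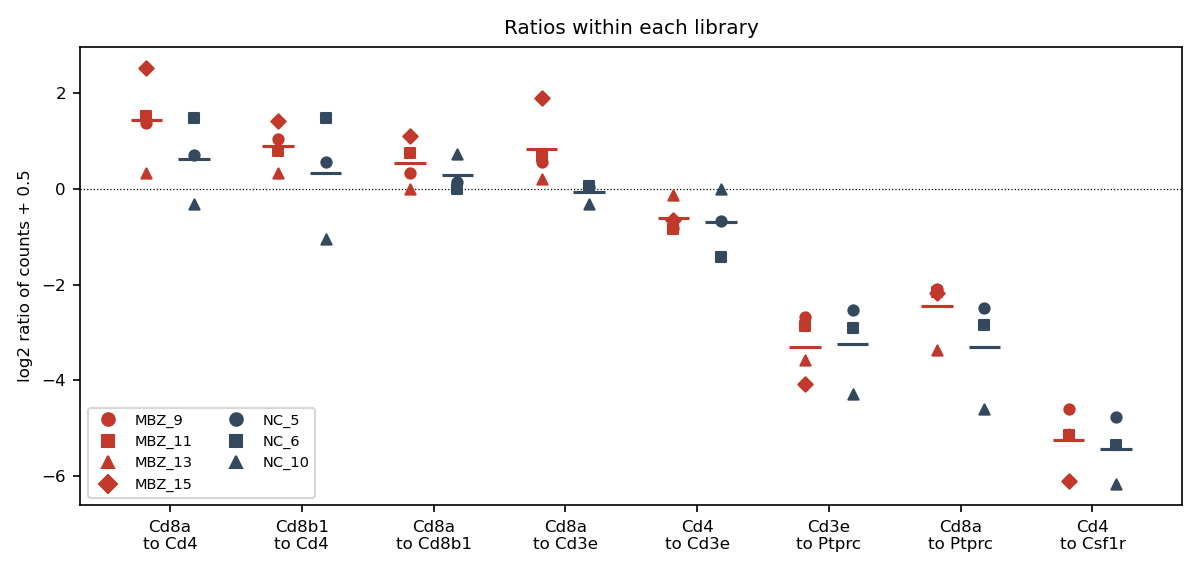
log2 ratio of counts (y axis, 0.5 added to each count) for 8 pairs of genes (x axis), with Zelnorm libraries left and NC libraries right in each pair and lines at the group means. The groups are separate in Cd8a to Cd3e, where Zelnorm values lie between 0.21 and 1.89 and NC values between -0.31 and 0.06, and overlap in the other 7.

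Across the 7 libraries Cd8a followed Cd8b1 closely, with Pearson's r = 0.922 and Spearman's rho = 0.964 on log2 CPM (exact permutation p = 0.0016 and 0.0028, 0.0063 and 0.0111 adjusted over 4 relations). Without NC_10 and MBZ_9, the libraries farthest from the median of Cd8b1, r was 0.855. Cd8a and Cd4 had r = 0.561 and rho = 0.714 (exact permutation p = 0.192 and 0.0881, adjusted 0.194 and 0.110), and r was 0.360 without MBZ_11 and NC_6. A relation between Cd8a and Cd4 was thus not detected in 7 libraries.

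Cd4 had r = 0.810 and rho = 0.821 with Cd3e (exact permutation p = 0.0292 and 0.0341, adjusted 0.0583 and 0.0683). That relation rested on MBZ_11 and MBZ_9, without which r was 0.321. With Csf1r, Cd4 had r = 0.572 and rho = 0.679 (exact permutation p = 0.194 and 0.110, adjusted 0.194 and 0.110), and r was 0.275 without NC_6 and NC_5. Each group holds fewer than 6 libraries, so no correlation was computed within a group.

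**Figure D4:**
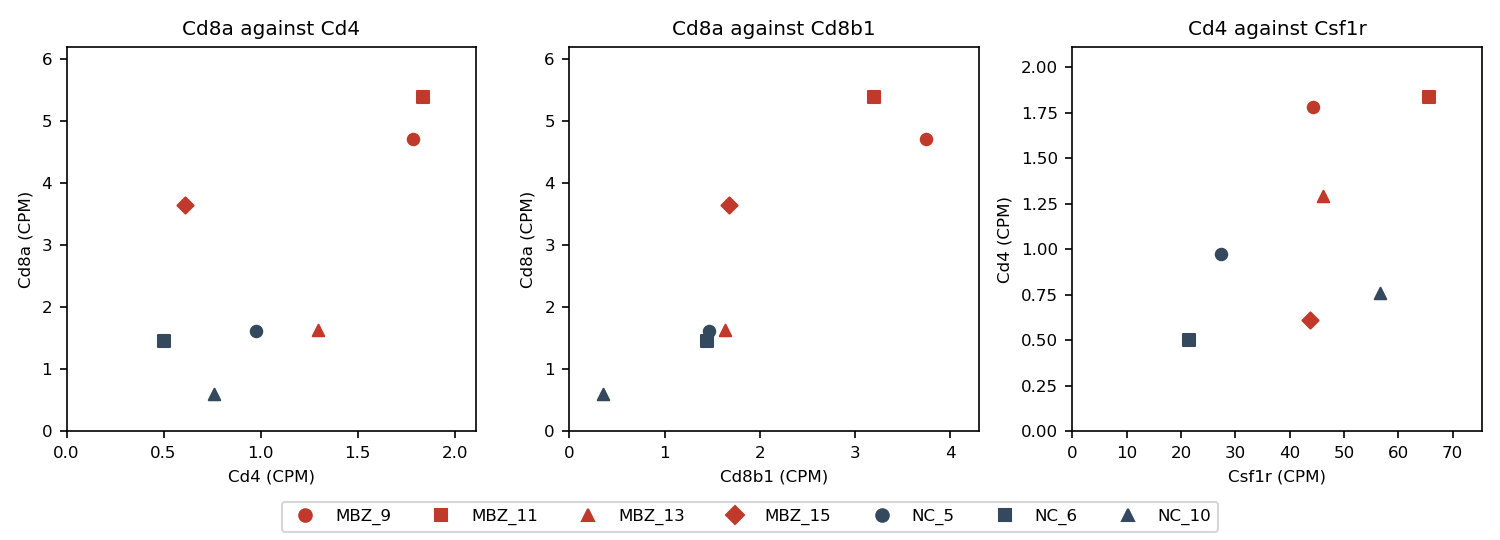
Each point is a library, with CPM on both axes: Cd8a against Cd4 (left), Cd8a against Cd8b1 (middle) and Cd4 against Csf1r (right). MBZ_15 has 3.66 CPM of Cd8a beside 0.609 CPM of Cd4, and NC_10 has 56.6 CPM of Csf1r beside 0.759 CPM of Cd4.

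Likeness to the CD3 pattern was ranked by Pearson's r over the 7 libraries among 12542 other named genes, as a description. Highest were Sidt2 (0.989), Fbrs (0.975), Tmem176b (0.969), Nkg7 (0.968), Ppa1 (0.968) and Hpf1 (0.967). Nkg7, a gene of cytotoxic granules, also had a like size of variation, with 67, 68, 32 and 39 counts in Zelnorm, against 36, 32 and 17 in NC. The other 5 differed at most 1.22-fold between libraries, against 5.29-fold for the CD3 level, and 89 genes had r above 0.9. The CD3 range includes the prior count of log2 CPM, which the ranges of single genes do not.

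Most like Cd8a were Cryab (0.984), Tor1aip1 (0.978), Casp12 (0.975), Bid (0.975), Tigit (0.974) and Mvp (0.971), and 104 genes had r above 0.9. Cryab, Tor1aip1, Bid and Mvp differed only 1.26- to 1.60-fold between libraries, against 8.88-fold for Cd8a, all in CPM without a prior count. Tigit, an inhibitory receptor of T and natural killer cells, had 27, 31, 12 and 22 counts in Zelnorm, against 15, 9 and 7 counts in NC. Casp12, an inflammatory caspase gene, had 126, 132, 78 and 108 counts in Zelnorm, against 56, 57 and 33 in NC, with MBZ_13 lowest in its group for both, as for Cd8a.

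Downstream of the receptor, 26 genes of proximal signalling were listed, of which 23 were tested. edgeR called 0 of them, as did DESeq2 and limma voom, and edgeR called 1 without NC_10. By fitted level 17 were higher and 6 lower, with a median log2 fold change of 0.25. An unadjusted p under 0.05 was reached by 6 genes, all higher, and by 2 higher genes without MBZ_9, without MBZ_11 or without NC_6. Lat, the scaffold that ZAP-70 phosphorylates, was at 2.06 ± 0.450 CPM in Zelnorm and 0.937 ± 0.335 CPM in NC, and each Zelnorm library lay above each NC library (log2 fold change 1.13 ± 0.35 (SE), edgeR adjusted p = 0.295). Fyb, an adaptor that also occurs in myeloid cells, had a log2 fold change of 0.68 ± 0.21 (SE), and Skap1, an adaptor for adhesion, of 1.48 ± 0.57 (SE). Txk, Trat1 and Sh2d1a had too few counts to test.

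Of 16 genes that restrain receptor signalling, 14 were tested. edgeR called 0, as did DESeq2 and limma voom. Here 12 were higher and 2 lower, 3 of them higher at an unadjusted p under 0.05, with a median of 0.15. These were Sla (0.99 ± 0.31 (SE)), an adaptor that promotes removal of the receptor, Ptpn22 (1.16 ± 0.37 (SE)), a phosphatase that acts on LCK, and Cd6 (1.20 ± 0.52 (SE)), a surface receptor of T cells. Sla and Ptpn22 separated the groups and Cd6 did not.

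The 8 ligand genes of the coreceptors and of CD28, which tumour and myeloid cells can carry, summed to between 2105 and 3267 CPM in Zelnorm and between 957.5 and 1917 CPM in NC. All 8 were tested and higher, 7 of them at an unadjusted p under 0.05, with a median log2 fold change of 0.98. edgeR called 0 and limma voom 0, and DESeq2 called 1, H2-K1. H2-K1, a class I heavy chain gene, had 564.7 ± 116 CPM in Zelnorm and 290.0 ± 80.2 CPM in NC. The class II genes H2-Eb1 and H2-Ab1 had log2 fold changes of 1.19 ± 0.28 and 1.12 ± 0.27 (SE; edgeR adjusted p = 0.163 and 0.186). Reads of near-identical MHC genes may be split between them, which leaves those counts uncertain.

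In the list of CD28 family receptors and other T cell costimulators, 8 of 14 genes were tested and all 8 were higher, with a median of 0.54. edgeR, DESeq2 and limma voom called 0, and 3 had an unadjusted edgeR p under 0.05. That count was 0 without MBZ_9, MBZ_11 or NC_10, and 1 without MBZ_15, NC_5 or NC_6. Cd27 (1.22 ± 0.49 (SE)) and Cd96 (1.17 ± 0.51 (SE)) are receptors of T and natural killer cells, and Tnfrsf9 (0.41 ± 0.17 (SE)) encodes 4-1BB. Icos had 12, 12, 9 and 4 counts in Zelnorm, against 4, 5 and 4 in NC, and Ctla4 had 7, 10, 6 and 8 counts in Zelnorm, against 1, 3 and 2 in NC, both too few to test.

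Of 12 T cell transcription factor genes 11 were tested, with 10 higher, 1 lower and a median of 0.89. edgeR, DESeq2 and limma voom called 0, and 3 were higher at an unadjusted p under 0.05. Here 0 were left without NC_6, and 1 without MBZ_9, MBZ_11, NC_5 or NC_10. Runx3, a regulator of the CD8 lineage, had a log2 fold change of 1.19 ± 0.43 (SE), Tbx21, the T-bet gene, of 1.22 ± 0.44 (SE), and Foxp3, the factor of regulatory T cells, of 1.16 ± 0.52 (SE). Foxp3 had 19, 18, 10 and 7 counts in Zelnorm, against 4, 7 and 8 counts in NC, so MBZ_15 lay among the NC libraries for it as it did for Cd4.

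By summed CPM, natural killer and B cell markers were highest in MBZ_9 and MBZ_11, as the CD3 genes were. So were naive T cell and lymph node, type 1 dendritic cell and pan-leukocyte markers, so this pattern was not limited to lymphocyte lists. Pan-leukocyte markers summed to 731.9 CPM in MBZ_9 and 828.8 CPM in MBZ_11, with MBZ_15 next at 692.7 CPM. Myeloid, plasmacytoid dendritic cell and muscle sums were not highest in that pair. By mean log2 CPM the plasmacytoid dendritic cell markers were, at 1.19 in MBZ_9 and 1.07 in MBZ_11. The 12 natural killer markers, which bear on Cd247, Lck and Zap70, summed to 20.7, 18.9, 8.89 and 10.5 CPM in MBZ_9, MBZ_11, MBZ_13 and MBZ_15, against 7.80, 8.97 and 7.03 CPM in NC_5, NC_6 and NC_10. Of the 6 tested, 5 were higher, 3 of them at an unadjusted p under 0.05: Il2rb (1.17 ± 0.30 (SE)), Klrc1 (2.24 ± 0.59 (SE)) and Klrk1 (0.90 ± 0.40 (SE)). The 3 became 1 without MBZ_9 or MBZ_11. edgeR and limma voom called 0 of them and DESeq2 called 1, Il2rb. Ncr1, which defines natural killer cells, had 0 to 3 counts in Zelnorm and 0 to 5 in NC. The part of these cells in the values of the complex was not tested.

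B cell markers, 8 in number, summed to 9.61, 9.59, 5.51 and 3.86 CPM in Zelnorm, against 3.57, 4.07 and 5.71 CPM in NC, so MBZ_9 and MBZ_11 were high here too. Of 4 tested, edgeR called 0, as did DESeq2 and limma voom, 0 had an unadjusted p under 0.05 (2 without MBZ_15, 1 without NC_10), and the largest change was that of Cd22 (1.03 ± 0.47 (SE)). In the list of naive T cell and lymph node genes, Cr2 had 5, 7, 1 and 2 counts in Zelnorm and 0 in every NC library. Ccl21a had 3, 4, 0 and 0 counts in Zelnorm and 0 in every NC library, while Glycam1 was at 0 throughout. The other genes of this list with too few counts to test were mixed. Lef1 had 3, 6, 4 and 4 counts in Zelnorm against 8, 2 and 4 in NC, and Madcam1 3, 0, 0 and 1 against 2, 0 and 1. Cxcl13 had 4, 8, 5 and 4 against 5, 1 and 2, Fcer2a 12, 17, 0 and 2 against 3, 2 and 2, and Ccl19 4, 2, 0 and 0 against 0, 1 and 0. The 13 genes summed to between 36.1 and 56.4 CPM in Zelnorm and between 31.6 and 38.4 CPM in NC. Of 5 tested all were higher, with a median of 0.82, and 2 had an unadjusted p under 0.05, among them Il7r (1.31 ± 0.34 (SE)), the gene of a cytokine receptor chain. edgeR and limma voom called 0 and DESeq2 called 1. Their part in the CD3 values was not tested.

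Myeloid markers, 12 in number and all tested, summed to between 323.6 and 472.4 CPM in Zelnorm and between 160.8 and 385.5 CPM in NC, where NC_10 was high. All 12 were higher by fitted level, with a median of 0.64, and 7 had an unadjusted p under 0.05, Ly6c2 the smallest (1.46 ± 0.25 (SE)). That count was 2 without NC_5 or NC_6 and 11 without NC_10. edgeR and limma voom called 0 and DESeq2 called 2, Fcgr1 and Ly6c2, while edgeR called 10 without NC_10. NC_10 thus combined the fewest CD3 transcripts with many myeloid ones. Of the 8 markers of plasmacytoid dendritic cells 5 were tested, 4 of them higher and 1 lower, with a median of 0.68. Bst2 (0.80 ± 0.15 (SE)), an interferon-inducible gene, was called by DESeq2 but not by limma voom or by edgeR as fitted. Without the filter on low counts, edgeR called 1 gene of this list. Siglech, the defining gene of plasmacytoid dendritic cells, had 1 to 7 counts in Zelnorm and 2 to 3 in NC. Pan-leukocyte genes were higher in 14 of 14 cases, with a median of 0.69, 9 at an unadjusted p under 0.05, 6 calls by DESeq2 and 0 by edgeR or limma voom.

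Skeletal muscle transcripts differed most between libraries. The 14 markers summed to 20.9, 151.1, 7.93 and 400.0 CPM in MBZ_9, MBZ_11, MBZ_13 and MBZ_15, against 46.8, 7.18 and 6.42 CPM in NC_5, NC_6 and NC_10. Of 12 tested, all were higher by fitted level (median 2.90), 7 at an unadjusted p under 0.05, and edgeR, DESeq2 and limma voom called 0. The 7 became 0 with limma voom, with a robust fit or without NC_6, 1 without MBZ_15, 3 without NC_10, 4 without MBZ_11 and 13 without NC_5, where more of the 14 were tested. MBZ_9 and MBZ_11, alike in the CD3 genes, were not alike in muscle. With the muscle level as a covariate the log2 fold change of Cd8a was 1.28 (edgeR adjusted p = 0.463) and that of Cd3e was 0.82.

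**Figure D5:**
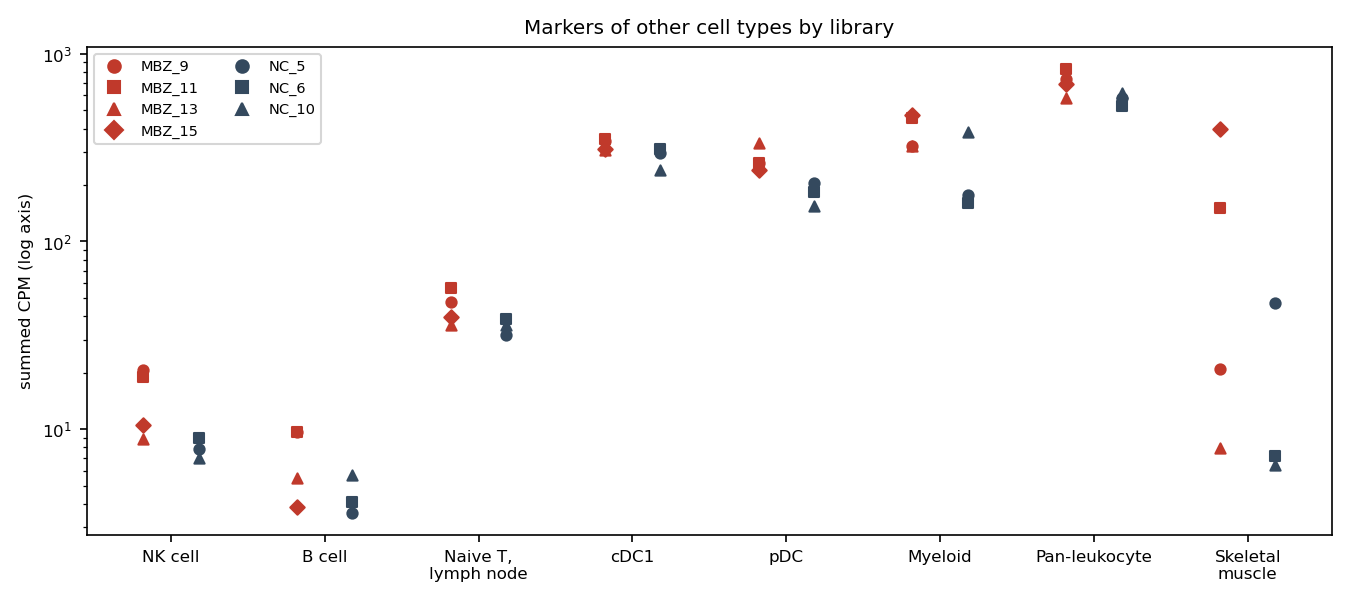
Summed CPM of 8 lists of markers of other cells (x axis, Zelnorm libraries left and NC libraries right in each list; y axis logarithmic). MBZ_9 and MBZ_11 are highest in several lists, natural killer and B cell markers among them, and MBZ_15 is highest in skeletal muscle markers, at 400.0 CPM.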

How the data were processed

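The authors deposited raw read counts per gene for 7 libraries, made with a stranded TruSeq mRNA kit per the labels' protocols. The submitters' processing notes list DESeq, HTSeq, Cufflinks, HISAT2 and Trimmomatic, beside the builds GRCm38 and GRCh38. For versions, filters and the strand setting the sources used here give nothing. Column names show the group but no title's replicate number, so each column was assigned only to a group. Of 21878 genes, 21727 were found by identifier in the RefSeq gene table of GRCm38.p6, which gave the coordinates, and 27 symbols that had become dates were restored. The members and lists were chosen with earlier results of these data known.

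Genes were filtered with filterByExpr, libraries scaled by TMM and groups compared with edgeR 4.0.16 (quasi-likelihood test, R 4.3.3) with Benjamini-Hochberg adjustment over all 12997 genes tested at 0.05. The SE came from the F statistic. Log2 CPM used a prior count of 2 and ratios a count of 0.5 added to each gene. Ratios were compared by exact permutation over 35 splits. All 10 members were named, with up to 3 genes of each list by smallest p, the 6 genes most like each of 2 patterns, and Ptprc and Csf1r. Xcr1, Clec9a, Icos, Ctla4, Ncr1, Siglech, Cr2, Ccl21a and Glycam1 were picked as examples with their values known. Lef1, Madcam1, Cxcl13, Fcer2a and Ccl19 were given as the rest of the untested genes of their list. Some genes that the naming rule or the marker lists cover are not reported here. Alternatives tried were RLE and upper quartile scaling, 2 other filters, DESeq2 1.42.0, limma 3.58.1 (voom), a robust fit, 2 covariates, other prior counts and each library left out. The fit was tested on simulated counts. Figures were drawn with matplotlib 3.10.9.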

Additional observations from a re-analysis of the deposited data

Results flagged for a closer look

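The log2 ratio of Cd8a to Ptprc in MBZ_13 was -3.37, whereas the other Zelnorm libraries lay between -2.18 and -2.10. Its gap to the nearest of them took up 0.937 of the range of the group. The Csf1r level in MBZ_11, at 65.6 CPM, stood apart from the other Zelnorm libraries at 43.7 to 46.2 CPM, with a gap of 0.885 of the range. These were 2 of 76 group values checked, and chance flags about 1 in 20.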

How the results depend on the processing

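The fitted change of the members kept its side of the adjusted threshold in all alternatives run, except that DESeq2 called Cd8a (1.64, adjusted p = 0.0164). Direction turned for Cd3d (-0.26), Cd247 (-0.36) and Zap70 (-0.20) with the pan-leukocyte covariate, and for Cd247 without MBZ_9 (-0.25) or NC_5 (-0.00415), within a leave-one-out range of -0.25 to 0.42. With that covariate Ccr7 (-0.15), Cd79a (-0.25), Wdfy4 (-0.0211), Irf8 (-0.04996), Spib (-0.521) and Csf1r (-0.23) turned as well, and with the muscle covariate Tyr (0.011). The cause was not tested. Genes called by edgeR, 4 as fitted, numbered 34 without the filter, 21 with the robust fit, 0 with the pan-leukocyte covariate and 32 at an adjusted threshold of 0.1, and DESeq2 called 206. With a library left out the count ran from 0 to 161. Members at an unadjusted p under 0.05, 2 as fitted, were 0 with the pan-leukocyte covariate and 1 with the muscle covariate, and 1 to 6 with a library left out. With the pan-leukocyte covariate 0 genes were higher at that p in the lists of proximal signalling, inhibitors, costimulation and transcription factors, and with the muscle covariate 1 in proximal signalling, 0 in costimulation and 2 among myeloid markers.

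With a library left out, the difference in log2 ratio ran from 0.35 to 1.24 for Cd8a to Cd4, -0.13 to 1.14 for Cd8b1 to Cd4, -0.27 to 0.44 for Cd4 to Cd3e, -0.58 to 0.30 for Cd3e to Ptprc and -0.19 to 0.52 for Cd4 to Csf1r. The Cd3e to Ptprc difference was 0.10 from counts summed over each group. Pearson's r of Cd4 with Cd3e ran from 0.724 to 0.926, and the highest, without NC_6, passed the threshold. Without a library the permutation test of a ratio cannot reach 0.05. Apart from Lck, the members had 4 to 91 counts a library, and a change of the size fitted for Cd4 or Cd3e was not detected. What size could be detected at this depth and spread was not tested. No paired analysis was possible because no column name holds a replicate number from the titles.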
